A study of Rattus norvegicus with 12 samples.

Results

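A set of 10 genes of exosome surfaces and exosome release was followed across rat nucleus pulposus cells, the gel-forming cells of the intervertebral disc core: 6 tetraspanins (Cd9, Cd63, Cd81, Cd82, Cd151 and Tspan4), the small GTPases Rab27a and Rab27b, and the adaptors Sdcbp (syntenin) and Pdcd6ip (ALIX). They were picked by gene symbol, with earlier results of these data known, and are 10 of the 21071 genes in the deposited table. Each symbol stood on 1 row, and all 10 were among the 15650 genes that passed the filter on low counts. The study had 12 libraries in 4 groups of 3. The group NPPC-Exo received exosomes of nucleus pulposus progenitor cells, and the group miR-Exo received such exosomes overexpressing miR-221-3p. The other two groups, Erastin+NPPC-Exo and Erastin+miR-Exo, received the same exosomes together with erastin, which blocks cystine uptake and was used to induce ferroptosis, an iron-dependent form of cell death. Per the labels exosomes were added at 50 µg/mL and erastin lay between 0.1 and 5 µM for 48 h, with no dose stated for a single library. Every group had exosomes, so no value here is that of cells without them. The labels give neither strain, sex nor age, list the cells under a cell line entry that names only nucleus pulposus cells, and do not state if libraries sharing a group came from different cultures. The p-values therefore measure the spread between libraries, which may be technical.

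Exosomes are small vesicles that form inside endosomes and are released when such an endosome fuses with the cell surface. Tetraspanins are proteins that cross the membrane repeatedly and gather integrins, proteases and receptors into patches, and CD9, CD63 and CD81 are the usual surface markers of exosomes. Syntenin links the tails of syndecans to ALIX, which recruits the ESCRT proteins that bud the vesicle inward, and RAB27A and RAB27B bring the filled endosome to the cell surface. These are functions of proteins. The measurements are of transcripts in the receiving cells, and say nothing of how many vesicles the cells released.

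Per the labels the kinds of exosome differ by overexpression of miR-221-3p. Its mature sequence is therefore shown, with that of its family member miR-222-3p, from RefSeq (GRCr8). Capitals mark the seed, bases 2 to 8 from the 5′ end, which both share and which 2 mature rat miRNAs in that table carry.
rno-miR-221-3p: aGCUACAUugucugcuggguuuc
rno-miR-222-3p: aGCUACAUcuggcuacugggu
As a check of the labels, the gene Mir221 had 17 counts in each NPPC-Exo library and 1524 to 1752 in the miR-Exo libraries. With erastin it had 21 to 24 counts under NPPC-Exo and 1578 to 1651 under miR-Exo.

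The library totals ran from 54616827 to 68865720 counts. Of 12 nucleus pulposus markers 9 were analysed, and their summed level was 7105 to 8133 CPM (counts relative to the scaled library total) in NPPC-Exo, 7089 to 8584 in miR-Exo, 1107 to 1255 in Erastin+NPPC-Exo and 853 to 919 in Erastin+miR-Exo. Acan and Col2a1 made up most of it, while Cd24, at a mean of 8.82 CPM in NPPC-Exo, 12.7 in miR-Exo, 15.9 in Erastin+NPPC-Exo and 21.3 in Erastin+miR-Exo, was higher with erastin, as were Ca12 and Foxf1 at low levels. The keratin Krt8 did not exceed 5.88 CPM and Krt18 did not exceed 0.238 CPM in any library. The symbols Krt19, T and Shh were on no row of the deposited table and could not be analysed. The same holds for the listed markers of the other cell types that were left out below. The 8 fibroblast and annulus markers analysed, of 9, summed to 48376 to 55876 CPM in NPPC-Exo, 47971 to 57056 in miR-Exo, 20266 to 23640 in Erastin+NPPC-Exo and 11815 to 15677 in Erastin+miR-Exo, most of it Col1a1 and Col3a1. In the same list Pdgfra had means of 103 and 81.9 CPM in the groups without erastin and 129 and 171 in those with it, and Dcn 3.56 and 4.71 against 3.75 and 26.8. The 9 myeloid and blood markers analysed, of 13, summed to 7.36 to 9.4 CPM in NPPC-Exo, 9.91 to 11.4 in miR-Exo, 12.9 to 17.8 in Erastin+NPPC-Exo and 22.4 to 29.6 in Erastin+miR-Exo. Cd14 led this list, with means of 7.34, 8.3, 13.3 and 23.4 CPM in the same order, and Cd68 followed with 0.489, 1.12, 1.04 and 2.44, while none of the other 7 exceeded 0.866 CPM in a library. The 4 endothelial markers, of 7, summed to at most 1.82 CPM without and 3.78 CPM with erastin, and the 3 erythroid markers, of 5, to at most 0.356 CPM. These marker levels differed between the libraries with and without erastin, as did the results below, and their part in the results was not tested. In bulk libraries fewer cells of a type and less RNA per cell cannot be told apart.

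The 10 genes spanned a wide range of levels. To compare genes, the authors' FPKM (fragments relative to transcript length and library total) were used, since they are per length. In NPPC-Exo, Cd63 was highest with a mean of 405 FPKM (SD 47.9, n = 3), followed by Cd81 with 328 (SD 37.2), and their ranges over the 3 libraries overlapped. Sdcbp stood at 246 FPKM, Cd151 at 102 and Cd9 at 86.5, each clear of its neighbours. Pdcd6ip at 42.8 and Cd82 at 42.5 FPKM overlapped. The last 3 were clear of one another, with Rab27a at 8.85, Tspan4 at 4.1 and Rab27b at 1.02 FPKM. The order in miR-Exo was the same, with overlaps between Cd63 and Cd81 (means of 381 FPKM for both) and between Cd151 (98.6) and Cd9 (88.9).

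With erastin the order changed. In Erastin+miR-Exo Cd63 was first with 406 FPKM, then Sdcbp with 232, Cd81 with 175, Cd151 with 140 and Cd82 with 89.1, each clear of the next. Pdcd6ip (47.9 FPKM) and Cd9 (47.4) overlapped there, as did Tspan4 (5.63) and Rab27a (5.37), and Rab27b remained last with 1.63. Erastin+NPPC-Exo differed from this order in that Sdcbp (211 FPKM) overlapped Cd81 (203) and Rab27a (6.79) was clear above Tspan4 (5.56). Cd82 thus stood below Cd9 in both groups without erastin and above it in both groups with erastin.

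**Figure D1:**
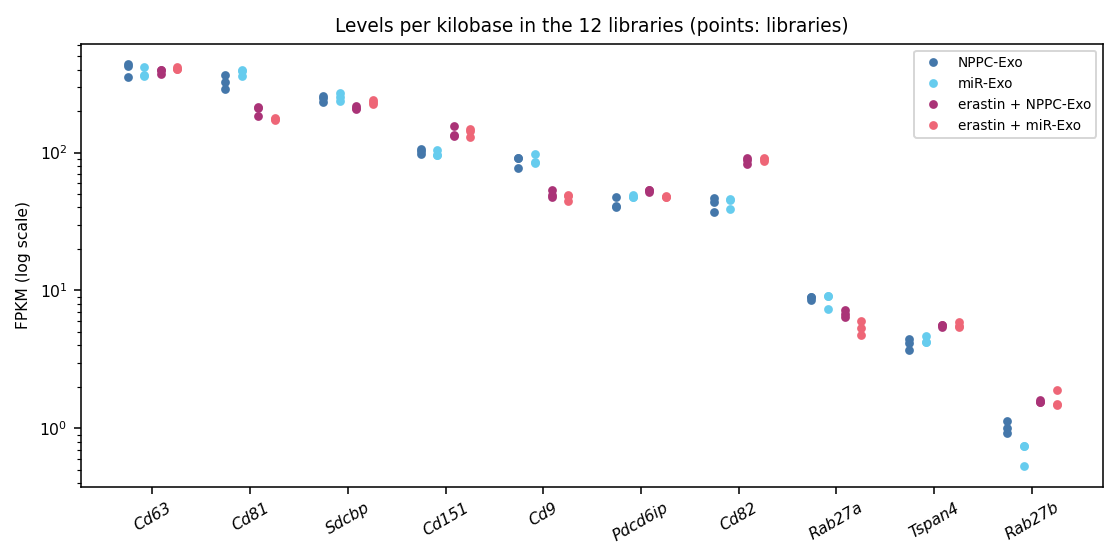
Deposited FPKM of the 10 genes on a log axis, 1 point per library, coloured by group. Cd63 has the highest mean in every group except miR-Exo, where Cd81 equals it at 381 FPKM, and Cd82 and Cd9 change places between the groups without and with erastin.

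Erastin split the tetraspanins. Cd9 and Cd81 fell and Cd82 rose under both kinds of exosome, whatever the scaling of the libraries, and the smaller rise of Cd151 kept its direction. Under NPPC-Exo, 7 of the 10 genes passed the test (adjusted p under 0.05), against 43.6% of all genes tested. Of these, 2 were higher, where 21.5% of all genes were, and 5 were lower, where 22.1% of all genes were. Under miR-Exo 9 of the 10 passed, against 49.1% of all genes. Here 3 were higher and 6 lower, against 24.7% and 24.4% of all genes. The libraries with and without erastin did not overlap in CPM for 9 of the 10 genes under either kind of exosome, which held for 53.6% of all genes under NPPC-Exo and 58.4% under miR-Exo. The median log2 fold change of the 10 genes was −0.15 under NPPC-Exo and −0.26 under miR-Exo, beside 0.02 and 0.03 for all genes. Scaled by library size alone, the median of all genes moved to 0.3 and 0.334, with 77.8% and 76.4% of the called genes higher in place of 49.3% and 50.4%. The 10 genes then counted 5 higher and 4 lower under NPPC-Exo, and 4 higher and 3 lower under miR-Exo. The difference between the scalings is therefore given beside each of the 10 genes whose call or direction with erastin it changed. For the list genes below it is given for only some.

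**Figure D2:**
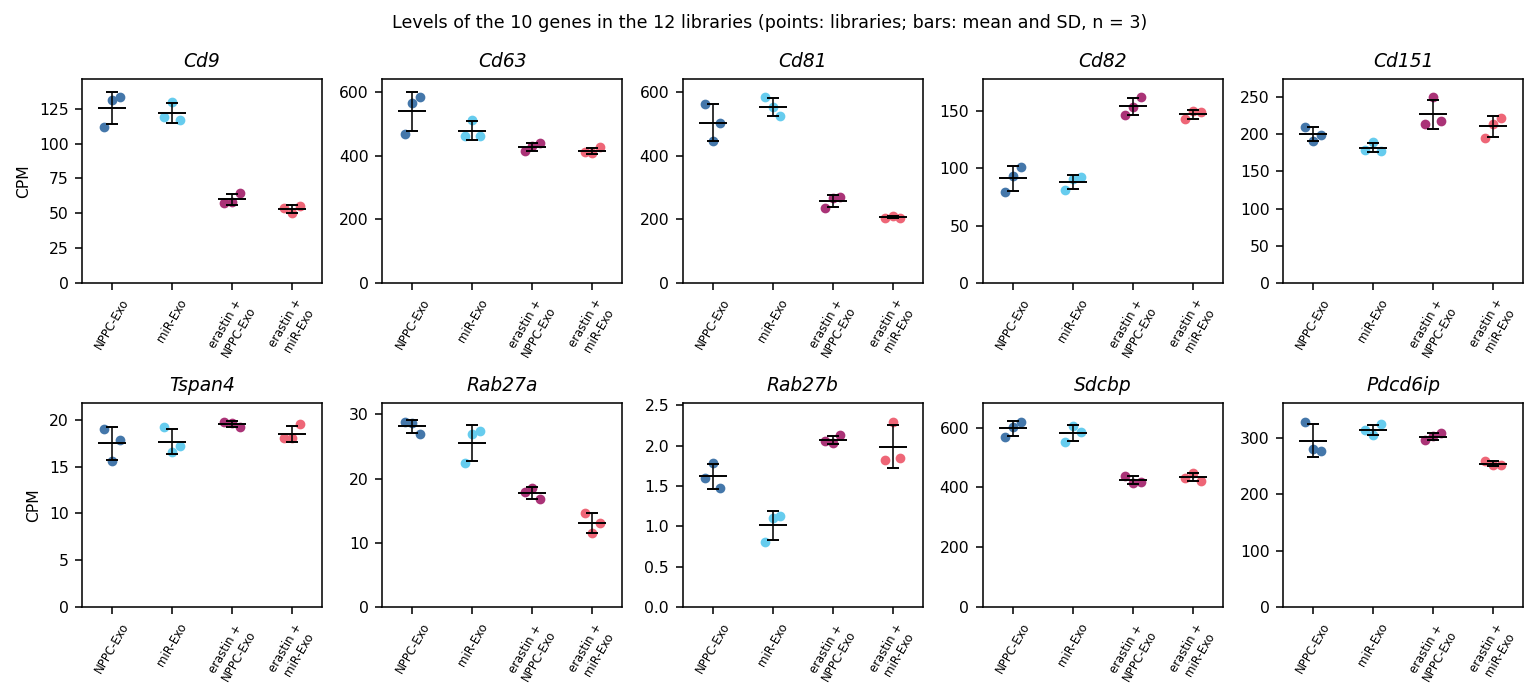
CPM of each gene by group, with a linear axis from 0, 1 point per library, and the mean and SD of 3 libraries. Cd9 and Cd81 lie lower and Cd82 higher in all 6 libraries with erastin than in all 6 without.

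Cd9 binds integrins and the immunoglobulin proteins EWI-2 and EWI-F. It stood at 112, 131 and 133 CPM in the NPPC-Exo libraries and at 57.4, 58.3 and 64.6 in the Erastin+NPPC-Exo libraries. Under miR-Exo it stood at 119, 130 and 117 CPM without erastin and at 53.8, 50.0 and 55.2 with it. Every library with erastin lay below every library without. The log2 fold change was −1.06 (SE 0.08, adjusted p 1.25e-07) under NPPC-Exo and −1.2 (SE 0.08, adjusted p 3.32e-08) under miR-Exo, that is to 0.479 and 0.434 of the level without erastin.

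Cd81, a partner of integrins in many cells, was among the most abundant of the 10 genes without erastin. It had 563, 446 and 503 CPM in NPPC-Exo and 237, 266 and 270 in Erastin+NPPC-Exo. In miR-Exo it had 583, 553 and 526 CPM, and in Erastin+miR-Exo 206, 211 and 205. The groups did not overlap, and the Erastin+miR-Exo libraries were the lowest of the 12. The log2 fold change with erastin was −0.97 (SE 0.08, adjusted p 2.75e-07) under NPPC-Exo and −1.42 (SE 0.08, adjusted p 6.4e-09) under miR-Exo.

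Cd82, known as a suppressor of metastasis that restrains cell movement, went the other way. It rose from 79.8, 93.3 and 101 CPM to 147, 154 and 162 under NPPC-Exo, and from 81.2, 91.2 and 92.8 to 143, 150 and 149 under miR-Exo. The highest library without erastin was well below the lowest with it. The log2 fold changes were 0.76 (SE 0.08, adjusted p 4.28e-06) and 0.74 (SE 0.08, adjusted p 5e-06).

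Cd151, which holds laminin-binding integrins, moved little. It had 209, 191 and 199 CPM in NPPC-Exo and 213, 249 and 218 in Erastin+NPPC-Exo, and 179, 189 and 177 in miR-Exo against 195, 214 and 222 in Erastin+miR-Exo. The groups did not overlap, but under NPPC-Exo they came within a few CPM of each other. The log2 fold change was 0.18 (SE 0.07, adjusted p 0.0466) under NPPC-Exo and 0.21 (SE 0.07, adjusted p 0.0215) under miR-Exo. The first call was lost without NPPC-Exo replicate 2 (0.148), NPPC-Exo replicate 3 (0.176) or Erastin+NPPC-Exo replicate 2 (0.125). The same call was lost with no filter on low counts (0.186, adjusted p 0.0534) and with only the groups compared in the fit (0.179, adjusted p 0.0648). A block for the replicate number over all groups lost it too. The second call was lost without miR-Exo replicate 1 (0.196), miR-Exo replicate 3 (0.188), Erastin+miR-Exo replicate 2 (0.18) or Erastin+miR-Exo replicate 3 (0.154). The rises were 0.463 and 0.511 by library size alone. An opposite-strand pseudogene that overlaps Cd151 had at most 35 counts in any library, beside 10162 or more for Cd151.

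Cd63, the tetraspanin of late endosomes and lysosomes, had 468, 567 and 583 CPM in NPPC-Exo and 414, 430 and 440 in Erastin+NPPC-Exo. In miR-Exo it had 463, 512 and 462 CPM, and in Erastin+miR-Exo 411, 410 and 427. It fell by 0.33 on the log2 scale (SE 0.07, adjusted p 0.00197) under NPPC-Exo and by 0.2 (SE 0.07, adjusted p 0.0318) under miR-Exo, and the groups did not overlap. This fall depended on the scaling: by library size alone the changes were −0.0505 and 0.1, and neither passed. Under miR-Exo the call was also lost without miR-Exo replicate 2 (−0.153), Erastin+miR-Exo replicate 1 (−0.21) or Erastin+miR-Exo replicate 2 (−0.208).

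Tspan4, a tetraspanin of the migrasomes left behind by moving cells, ranged from 15.6 to 19.8 CPM over all 12 libraries. With erastin the log2 fold change was 0.16 (SE 0.09, adjusted p 0.178) under NPPC-Exo and 0.06 (SE 0.09, adjusted p 0.596) under miR-Exo. Neither passed the test, though by library size alone both did, with 0.441 and 0.369. A gene on the opposite strand that overlaps Tspan4 had at most 89 counts in a library, and Tspan4 at least 831.

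The split was also seen inside each library, where scaling between libraries plays no part. The ratio of Cd82 to Cd81 in FPKM was 0.131 (SD 0.0265, n = 3) in NPPC-Exo and 0.115 (SD 0.0135) in miR-Exo. It was 0.429 (SD 0.0145) in Erastin+NPPC-Exo and 0.509 (SD 0.0105) in Erastin+miR-Exo, and no library without erastin exceeded 0.15. The ratio of Cd82 to Cd9 was 0.491 (SD 0.0168) and 0.49 (SD 0.0412) without erastin, and 1.73 (SD 0.0451) and 1.88 (SD 0.127) with it. The ratio of Cd9 to Cd81, which both fell, lay between 0.21 and 0.312 in all 12 libraries. These ratios are given without a test.

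Of the summed FPKM of the 6 tetraspanins, Cd81 took 33.9% (SD 4.35, n = 3) in NPPC-Exo and 38.2% (SD 1.76) in miR-Exo, and 23.2% (SD 0.681) and 20.3% (SD 0.551) in the same groups with erastin. The share of Cd82 was 4.38% and 4.37% without and 9.95% and 10.3% with erastin, that of Cd151 10.6% and 9.89% without and 16.0% and 16.2% with it, and that of Cd9 8.92% and 8.91% without and 5.73% and 5.5% with it. Cd63 kept the largest mean share in 3 groups and equalled Cd81 at 38.2% in miR-Exo. In NPPC-Exo replicate 1 the share of Cd81 was 38.8%, the highest of its group, and that of Cd63 was 37.3%, the lowest.

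**Figure D3:**
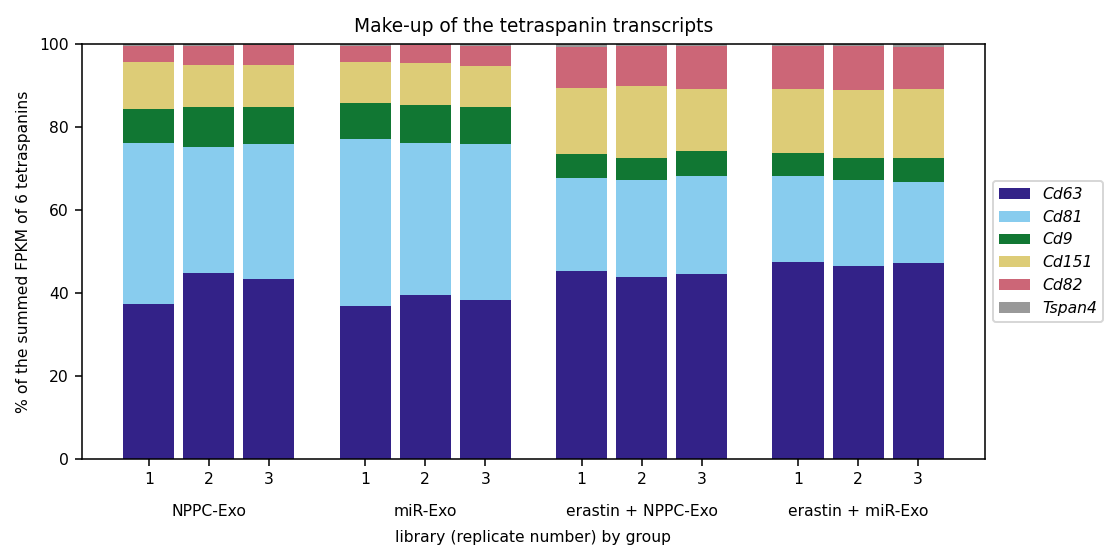
Share of each tetraspanin in the summed FPKM of the 6, 1 bar per library, in 4 groups of 3. The Cd81 share is 30.5% to 40.2% in the libraries without erastin and 19.7% to 23.7% in those with it, while the Cd82 share is 3.93% to 4.76% against 9.69% to 10.5%.

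The promoters of Cd9 and Cd81, which fell with erastin, and of Cd151, which did not, are shown to set the 3 starts side by side. They are 300 bases each, 250 before and 50 after the RefSeq gene start (GRCr8), on the gene's strand, and 7 of the 10 genes had an entry among 33469 promoters. Cd9 is at chr4:159975309-159975608 (minus strand), Cd81 at chr1:207665047-207665346 (plus strand) and Cd151 at chr1:205994050-205994349 (plus strand). Capitals mark GGGCGG, the GC box bound by Sp factors, which was searched on both strands.
Cd9 promoter: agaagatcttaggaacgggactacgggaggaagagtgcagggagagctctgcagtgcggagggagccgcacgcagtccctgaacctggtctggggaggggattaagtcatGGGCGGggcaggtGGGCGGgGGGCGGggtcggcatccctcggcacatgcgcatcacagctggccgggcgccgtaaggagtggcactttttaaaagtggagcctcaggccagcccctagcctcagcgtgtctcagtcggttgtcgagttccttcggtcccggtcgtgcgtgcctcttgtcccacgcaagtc
Cd81 promoter: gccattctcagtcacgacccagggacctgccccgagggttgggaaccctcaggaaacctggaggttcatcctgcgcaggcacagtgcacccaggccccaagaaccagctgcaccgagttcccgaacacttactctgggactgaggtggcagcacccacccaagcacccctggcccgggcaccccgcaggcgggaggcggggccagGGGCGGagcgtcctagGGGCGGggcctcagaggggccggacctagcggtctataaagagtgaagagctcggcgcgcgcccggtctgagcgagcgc
Cd151 promoter: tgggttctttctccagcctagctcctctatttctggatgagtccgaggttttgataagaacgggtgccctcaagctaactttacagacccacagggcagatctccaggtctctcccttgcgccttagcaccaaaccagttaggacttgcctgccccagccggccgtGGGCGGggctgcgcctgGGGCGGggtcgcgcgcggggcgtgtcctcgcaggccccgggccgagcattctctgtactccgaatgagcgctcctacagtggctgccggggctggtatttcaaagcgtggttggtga
The Cd9 promoter held 3 GC boxes, and those of Cd81 and Cd151 held 2 each. Among the other entries, those of Cd63 and Rab27a held 2 each and those of Rab27b and Pdcd6ip none, while Cd82, Tspan4 and Sdcbp were not matched. Of all promoters 33.1% held at least 1. GC made up 64.0% of the Cd9, 68.7% of the Cd81 and 61.7% of the Cd151 promoter, against a median of 51.7%. The AP-1 site TGANTCA, held by 7.33% of all promoters on either strand, was not in any of the 3, while those of Cd63 and Rab27b held 1 each. The antioxidant element core TGANNNNGC, held by 40.5% of all promoters, had 2 matches in the Cd81 promoter and none in those of Cd9 and Cd151. TATAAA, held by 14.2%, had 1 match in the Cd81 promoter, 6 bases into the gene, and none in the other promoters shown. The other motifs searched had no match in the promoters shown. A match of letters describes the sequence and does not show that a factor binds there.

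The RAB27 pair went apart under miR-Exo, while under NPPC-Exo only the fall of Rab27a passed the test. Rab27a stood at 28.9, 28.6 and 26.9 CPM in NPPC-Exo and at 18.0, 18.6 and 16.8 in Erastin+NPPC-Exo. Under miR-Exo it stood at 22.4, 26.9 and 27.5 CPM without erastin and at 14.7, 11.6 and 13.1 with it, and no library with erastin reached one without. It fell by 0.66 on the log2 scale (SE 0.1, adjusted p 0.000134) under NPPC-Exo and by 0.96 (SE 0.1, adjusted p 4.26e-06) under miR-Exo. The first fall was −0.376 by library size alone and still passed.

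Rab27b was the lowest of the 10 genes, with 47 to 157 counts per library. It had 1.6, 1.79 and 1.48 CPM in NPPC-Exo and 2.06, 2.03 and 2.13 in Erastin+NPPC-Exo, groups that did not overlap, yet the log2 fold change of 0.35 (SE 0.21) did not pass (adjusted p 0.208). In miR-Exo it had 0.811, 1.11 and 1.13 CPM and in Erastin+miR-Exo 1.82, 2.3 and 1.85, a rise of 0.97 (SE 0.21, adjusted p 0.00207). Both passed by library size alone, with 0.631 and 1.27. The rise differed between the kinds of exosome by 0.62 (SE 0.3, adjusted p 0.199), which did not pass. Inside the libraries, the FPKM ratio of Rab27b to Rab27a was 0.115 (SD 0.00839, n = 3) and 0.0786 (SD 0.00544) without erastin, and 0.233 (SD 0.0189) and 0.31 (SD 0.0792) with it.

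Of the 2 adaptors, Sdcbp fell under both kinds of exosome. It went from 569, 603 and 620 CPM in NPPC-Exo to 439, 415 and 418 in Erastin+NPPC-Exo, and from 553, 605 and 586 in miR-Exo to 433, 449 and 422 in Erastin+miR-Exo, with no overlap. The log2 fold changes were −0.49 (SE 0.05, adjusted p 2.2e-06) and −0.42 (SE 0.05, adjusted p 9.54e-06). They were −0.212, which passed, and −0.116, which did not, by library size alone.

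Pdcd6ip had 329, 281 and 276 CPM in NPPC-Exo and 296, 303 and 308 in Erastin+NPPC-Exo, which overlapped, and the log2 fold change was 0.03 (SE 0.06, adjusted p 0.69). Under miR-Exo it fell from 314, 306 and 324 CPM to 259, 252 and 252, by 0.31 on the log2 scale (SE 0.06, adjusted p 0.000796). By library size alone the values were 0.317, which passed, and −0.00253, which did not. Inside the libraries, the FPKM ratio of Sdcbp to Pdcd6ip had means of 5.79 (SD 0.775, n = 3) in NPPC-Exo, 5.25 (SD 0.321) in miR-Exo, 3.98 (SD 0.192) in Erastin+NPPC-Exo and 4.85 (SD 0.188) in Erastin+miR-Exo. The libraries with and without erastin did not overlap under NPPC-Exo, with 3.85 to 4.2 against 4.91 to 6.37, and overlapped under miR-Exo.

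**Figure D4:**
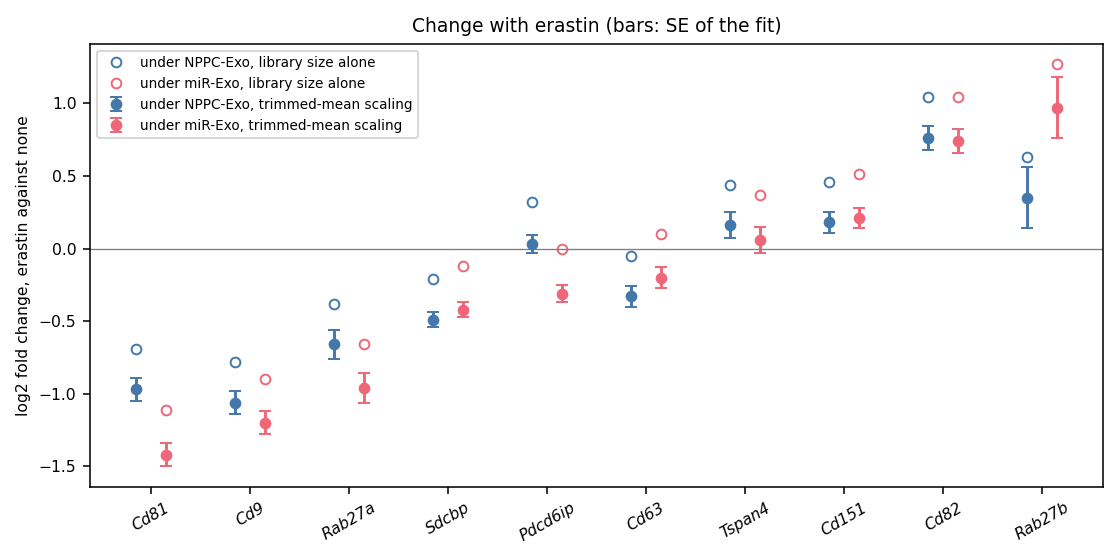
Log2 fold change with erastin under NPPC-Exo and under miR-Exo for each gene. Filled points with bars are the fit with trimmed-mean scaling and its SE. Open points are the same fit by library size alone and lie above the filled ones throughout. They leave Cd9, Cd81, Rab27a and Sdcbp below 0 and Cd82, Cd151, Rab27b and Tspan4 above it. The open points of Cd63 and Pdcd6ip lie on different sides of 0 under NPPC-Exo and under miR-Exo.

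The comparison of miR-Exo with NPPC-Exo sets exosomes overexpressing miR-221-3p against plain ones. No group is labelled as a control for the overexpression step, so other differences between the kinds cannot be told apart from the miRNA. This comparison shares its libraries with the comparisons above, so the 4 are not independent. Without erastin none of the 10 genes passed edgeR's quasi-likelihood test, against 10.7% of all genes, and none passed with DESeq2 or limma. At an unadjusted p under 0.05 there were 2, Rab27b with −0.67 (SE 0.22, adjusted p 0.066) and Cd63 with −0.17 (SE 0.07, adjusted p 0.156). The groups did not overlap for 2 of the 10, Rab27b and Cd151, against 28.8% of all genes. The median log2 fold change was −0.04, beside 0.0 for all genes.

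One library bore on that result, NPPC-Exo replicate 1. It was the lowest of its group for Cd9 (112 CPM), Cd63 (468) and Cd82 (79.8) and the highest for Cd81 (563) and Pdcd6ip (329). The first miR-Exo library was likewise the highest of its group for Cd81 (583 CPM) and the lowest for Cd82 (81.2). For Cd9 (119 CPM), Cd63 (463) and Pdcd6ip (314) it was neither the highest nor the lowest. Cd81 took 40.2% of its summed tetraspanin FPKM, beside 38.8% in NPPC-Exo replicate 1, the highest of each group. Its Cd82 to Cd81 ratio was 0.0996 beside 0.101, the lowest of each. With the replicate number as a block among the libraries without erastin, an alternative chosen after seeing the data, none of the 10 genes passed either, Cd63 being at −0.166 (SE 0.056, adjusted p 0.0793) and Rab27b at −0.683 (SE 0.22, adjusted p 0.0676). Without NPPC-Exo replicate 1 there were 2 calls, Cd63 with −0.262 (adjusted p 0.00854) and Pdcd6ip with 0.177 (adjusted p 0.0248).

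With erastin 3 of the 10 genes passed between the kinds of exosome, against 31.3% of all genes, and all 3 were lower under miR-Exo, as were 15.8% of all genes. These were Rab27a with a log2 fold change of −0.44 (SE 0.1, adjusted p 0.0055), Cd81 with −0.31 (SE 0.08, adjusted p 0.00745) and Pdcd6ip with −0.25 (SE 0.06, adjusted p 0.00634). Their CPM in Erastin+miR-Exo lay below those in Erastin+NPPC-Exo without overlap. Cd9 did not overlap either, with a difference of −0.18 (SE 0.08) that did not pass (adjusted p 0.0921), so that 4 of the 10 had no overlap, against 48.0% of all genes. The median of the 10 was −0.09, beside 0.01 for all genes. By library size alone the call of Pdcd6ip was lost (−0.146), and with limma on log2(FPKM + 1) those of Cd81 (−0.209) and Pdcd6ip (−0.147) were. The call of Rab27a was kept in both.

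Whether the effect of erastin differed between the kinds of exosome was tested as an interaction, which 2 of the 10 genes passed, against 12.8% of all genes. The log2 change of Cd81 with erastin was lower under miR-Exo by 0.45, an interaction of −0.45 (SE 0.11, adjusted p 0.0181). For Pdcd6ip the interaction was −0.34 (SE 0.08, adjusted p 0.0201), and it did not pass without NPPC-Exo replicate 2 (−0.307, adjusted p 0.0575). For Cd9 it was −0.14 (adjusted p 0.441) and for Rab27a −0.3 (SE 0.14, adjusted p 0.19), neither of which passed. A p above the threshold does not show that the effect was the same.

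Genes that work with the 10 were taken from lists of the pathway, and each count is read beside the percentages given above for all genes. Of 18 other tetraspanins tested, 3 were higher and 8 lower with erastin under NPPC-Exo and 3 higher and 6 lower under miR-Exo, with median log2 fold changes of −0.28 and −0.02. The counts by library size alone were 6 higher and 5 lower, and 7 higher and 4 lower. Tspan2, a tetraspanin of myelin-forming glia, fell from a mean of 84.0 CPM (SD 6.02, n = 3) to 32.4 (SD 3.33) under NPPC-Exo and from 63.2 (SD 2.46) to 18.9 (SD 1.4) under miR-Exo. Its log2 fold changes were −1.38 (SE 0.08, adjusted p 2.14e-08) and −1.74 (SE 0.09, adjusted p 2.25e-09). Between the kinds of exosome it was the 1 call among the 18 without erastin, at −0.41 (SE 0.08, adjusted p 0.00686), and stood at −0.78 (SE 0.08, adjusted p 2.23e-05) with erastin. Tspan18 fell with −1.27 and −1.71, and Tspan3 with −1.1 and −0.75. The fall of Tspan3 was smaller under miR-Exo, with an interaction of 0.35 (SE 0.09, adjusted p 0.0263).

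Partners of tetraspanins moved in both directions. Of 12 tested, 5 rose and 5 fell under NPPC-Exo (median 0.31), and 4 rose and 5 fell under miR-Exo (median −0.1). The integrin chains Itgb1, Itga4, Itga6 and Itga7 fell under both. The chain Itga3 rose under both, with 0.9 (SE 0.07, adjusted p 1.31e-07) and 0.6 (SE 0.07, adjusted p 5.68e-06). Itgb4, at a mean of at most 0.58 FPKM, rose with 1.17 (SE 0.29, adjusted p 0.00476) under NPPC-Exo. Under miR-Exo Itgb4 was at 0.29 (SE 0.28, adjusted p 0.433). Itgb1, the shared beta chain, had means of 4898 CPM (SD 143, n = 3) in NPPC-Exo, 3762 (SD 90.8) in miR-Exo, 2915 (SD 69.9) in Erastin+NPPC-Exo and 1828 (SD 88.3) in Erastin+miR-Exo. Its log2 fold change with erastin was −0.75 (SE 0.04, adjusted p 8.67e-09) and −1.04 (SE 0.04, adjusted p 3.27e-10), and with miR-Exo −0.38 (SE 0.04, adjusted p 0.000101) without and −0.67 (SE 0.04, adjusted p 2.28e-07) with erastin. Itga4, a chain of fibronectin and VCAM1 receptors, fell with −2.27 and −3.45, Itga6, a laminin receptor chain, with −0.91 and −1.22, and Itga7, another, with −2.05 and −1.82. Ptgfrn, which encodes the CD9 and CD81 partner EWI-F, rose with 0.51 (SE 0.05, adjusted p 8.75e-07) and 0.59 (SE 0.05, adjusted p 2.09e-07), and the protease gene Adam10 with 0.34 and 0.64. Igsf8, which encodes EWI-2, did not pass, with 0.49 (SE 0.21, adjusted p 0.0832) and −0.5 (SE 0.22, adjusted p 0.0754). Between the kinds of exosome with erastin, Igsf8 was lower under miR-Exo, with −1.03 (SE 0.22, adjusted p 0.00303).

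Around syntenin, 1 of 12 genes rose and 5 fell under NPPC-Exo (median −0.13), and 2 rose and 6 fell under miR-Exo (median −0.15). Under library size alone these counts became 4 higher and 4 lower, and 6 higher and 4 lower. Sdc2, a cell-surface heparan sulfate proteoglycan whose tail binds syntenin, had means of 836 CPM (SD 37.1, n = 3) in NPPC-Exo, 598 (SD 10.2) in miR-Exo, 243 (SD 12.0) in Erastin+NPPC-Exo and 112 (SD 2.91) in Erastin+miR-Exo. It fell with erastin by 1.78 on the log2 scale (SE 0.05, adjusted p 1.62e-11) under NPPC-Exo and by 2.42 (SE 0.05, adjusted p 1.03e-12) under miR-Exo. Its interaction was −0.63 (SE 0.07, adjusted p 0.000235), and unlike the 10 genes it was also called between the kinds of exosome without erastin, with −0.48 (SE 0.05, adjusted p 4.95e-05). Sdc4 fell with −0.64 (SE 0.07, adjusted p 4.38e-06) and −0.21 (SE 0.07, adjusted p 0.0203), the second of which was 0.1 by library size alone. Ext1, which extends heparan sulfate chains, fell with −0.8 and −0.64. Pld1 fell with −0.5 under NPPC-Exo and was at 0.08 (adjusted p 0.357) under miR-Exo, an interaction of 0.57 (SE 0.09, adjusted p 0.00235).

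The ESCRT list, the machinery that ALIX joins, counted 3 higher and 8 lower of 27 under NPPC-Exo (median −0.14) and 6 higher and 12 lower under miR-Exo (median −0.09). These counts turned with the scaling, since by library size alone they were 13 higher and 4 lower, and 14 higher and 3 lower. Chmp4c, an ESCRT-III subunit, fell under both scalings, with −1.02 (SE 0.09, adjusted p 5.64e-07) and −1.47 (SE 0.09, adjusted p 1.62e-08). Its mean was 50.0 CPM in NPPC-Exo, 46.2 in miR-Exo, 24.7 in Erastin+NPPC-Exo and 16.7 in Erastin+miR-Exo. Between the kinds of exosome without erastin 1 of the 27 passed, the ESCRT-0 gene Stam with −0.27 (SE 0.07, adjusted p 0.0225), whose call was lost by library size alone, where 4 of the 27 were called instead, all higher.

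Among RAB27 effectors and regulators, 3 of 14 were higher and 1 lower under NPPC-Exo (median 0.24), and 3 higher and 5 lower under miR-Exo (median 0.09). By library size alone they were 5 and 1, and 6 and 3. Madd, an exchange factor that activates RAB27 and RAB3 proteins, was higher with 0.95 (SE 0.17, adjusted p 0.000513) and 0.5 (SE 0.17, adjusted p 0.0245), at means of 2.65 CPM in NPPC-Exo and 5.11 in Erastin+NPPC-Exo. Tbc1d10a, which encodes a GTPase-activating protein of RAB27A, was at −0.22 (SE 0.2, adjusted p 0.397) under NPPC-Exo and fell with −1.51 (SE 0.2, adjusted p 3.53e-05) under miR-Exo, and its interaction was −1.29 (SE 0.28, adjusted p 0.0109). Sytl5 and Myrip averaged at most 0.853 and 0.933 FPKM in a group and were also called. Sytl5 fell with −3.48 (SE 0.35, adjusted p 2.84e-06) and −2.89 (SE 0.34, adjusted p 1.06e-05), and Myrip rose with 1.77 (SE 0.24, adjusted p 4.98e-05) and 1.21 (SE 0.24, adjusted p 0.000846).

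Of 18 other RABs and SNAREs of vesicle release, 2 were higher and 7 lower under NPPC-Exo (median −0.12), and 4 higher and 6 lower under miR-Exo (median −0.06). With library size alone this became 8 and 1, and 10 and 2. The kinesin gene Kif5b fell with −0.72 (SE 0.06, adjusted p 3.74e-07) and −1.02 (SE 0.06, adjusted p 1.05e-08). Of 13 genes of the ceramide route, by which vesicles can bud without ESCRT, 1 was higher and 7 were lower under NPPC-Exo (median −0.27), and 1 higher and 5 lower under miR-Exo (median −0.05). By library size alone they were 5 and 1, and 6 and 2. Smpd1, the acid sphingomyelinase gene, was at −0.42 (SE 0.07, adjusted p 0.000168) and −0.38 (SE 0.07, adjusted p 0.000368), and neither passed by library size alone. Smpd4 went the other way, with 0.34 (SE 0.08, adjusted p 0.00472) and 0.5 (SE 0.08, adjusted p 0.000288). Smpd3, at a mean of at most 0.2 FPKM, did not pass, with 0.73 (SE 0.36, adjusted p 0.125) and −0.05 (SE 0.36, adjusted p 0.928).

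Other proteins often found on vesicles counted 5 higher and 8 lower of 17 under NPPC-Exo (median −0.38), and 5 higher and 10 lower under miR-Exo (median −0.24). They were 7 and 8, and 7 and 7, by library size alone. Cav1, the caveolin of membrane pits, fell from a mean of 646 CPM (SD 26.4, n = 3) to 243 (SD 15.3) under NPPC-Exo and from 515 (SD 16.7) to 197 (SD 6.89) under miR-Exo, with log2 fold changes of −1.41 (SE 0.05, adjusted p 2.64e-10) and −1.39 (SE 0.05, adjusted p 2.51e-10). Lgals3bp, a secreted glycoprotein common on exosomes, rose with 1.46 (SE 0.07, adjusted p 2.18e-09) and 1.28 (SE 0.07, adjusted p 6e-09). The annexins, which bind membranes in the presence of calcium, went apart: Anxa2 rose with 0.65 and 0.72, and Anxa5 fell with −0.61 and −0.86. Without erastin 2 of the 17 were higher and 7 lower under miR-Exo than under NPPC-Exo, where 38.9% of all called genes were higher, and library size alone gave 6 higher and 7 lower, with 68.7% of all called genes higher. Among those lower were Anxa1 with −0.67 (SE 0.07, adjusted p 5.21e-05), Anxa2 with −0.33 and Cav1 with −0.33.

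**Figure D5:**
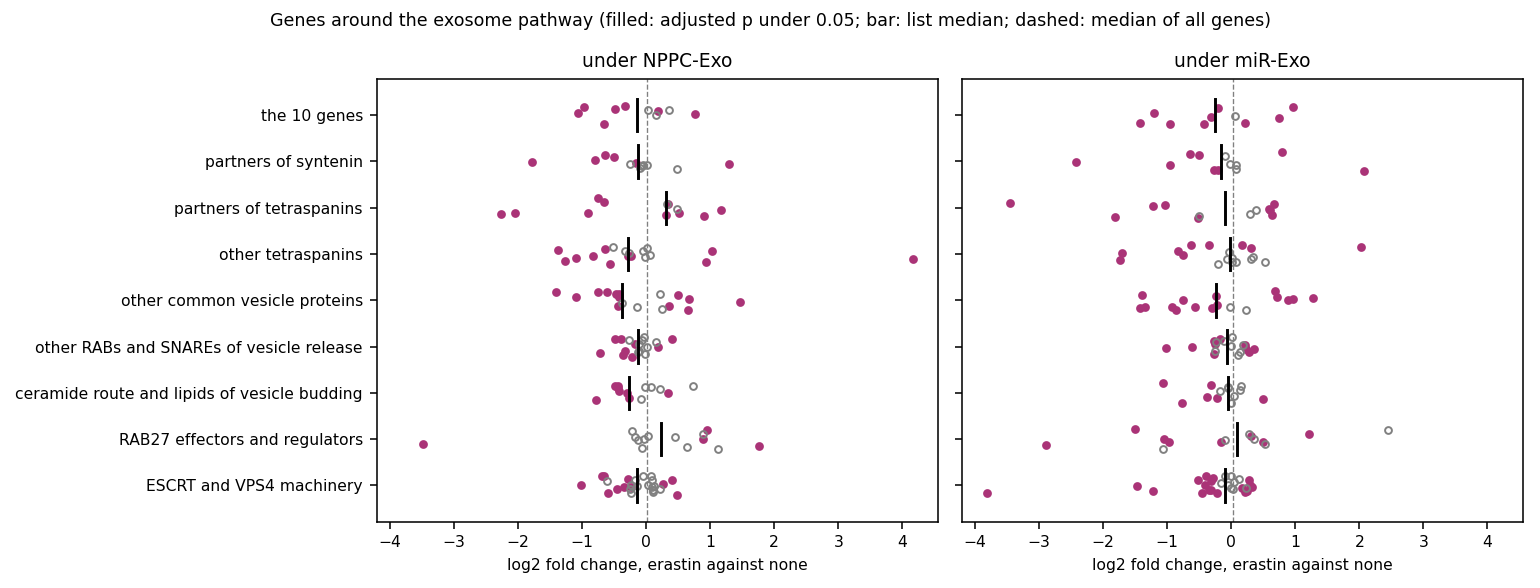
Log2 fold change with erastin for the genes of 8 pathway lists and the 10 genes, under NPPC-Exo and under miR-Exo. Filled points passed the test, bars are list medians and the dashed line is the median of all genes (0.02 and 0.03), and each list holds genes on both sides of it.

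The genes whose log2 CPM followed each of the 10 most closely over the 12 libraries were found by Pearson's r, as a description, since the 12 points are 4 groups and share their scaling. For Cd9 these were Tmbim1 (r = 0.994) and C1qtnf3 (0.992), and for Cd81 Adamts2 (0.994) and Alkal1 (0.993). For Cd82 they were Utp14a (0.993) and Pimreg (0.992), and for Sdcbp Dnajb4 (0.993) and Lyrm1 (0.992). Those of Rab27a were Rgs17 and Cgref1 (both 0.978), of Pdcd6ip Prpf6 (0.977) and Rai1 (0.968), of Rab27b Cd44 (0.961) and Rexo5 (0.958), and of Cd63 Kif1b (0.956) and Ube2j2 (0.953). The least closely followed were Cd151, by Aaas (0.91) and Leo1 (0.908), and Tspan4, by Dph1 (0.897) and Rom1 (0.885).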

How the data were processed

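RNA sequencing of 12 libraries from rat nucleus pulposus cells was analysed, made from total RNA with strand marking per the labels. The authors deposited counts per gene, not normalized, and FPKM beside them. The FPKM were proportional to the counts, up to a factor for each gene and a factor for each library. With both factors taken out, the SD of the log2 ratio was 0.00059 over 8019 genes. The submitters' processing notes name StringTie and the build mRatBN7.2. Which aligner and counter made the table is not given in the sources used here. Of the counts from 1 to 20, 57.3% were even, so a fit on halved counts was run. The 15650 genes kept by filterByExpr were scaled with edgeR's TMM method (trimmed mean of M values, factors 0.877 to 1.15) and fitted with edgeR 4.0.16 (glmQLFit and glmQLFTest, R 4.3.3) on the 4 group means. All p-values were adjusted by Benjamini and Hochberg over all genes tested of a comparison, and a gene was called under 0.05. CPM use the scaled library totals. The deviations of same-numbered NPPC-Exo and miR-Exo libraries from their group means correlated at 0.14 to 0.422 in all 3 pairs (−0.338 to 0.219 for other numbers), a pairing seen in the data and not stated in the labels, so this comparison was also fitted with the number as a block, an alternative added after seeing the data. The code was tested on simulated data.

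All 10 genes are named. From each list the up to 3 genes with the smallest adjusted p in a comparison, called and averaging 1 FPKM or more in their highest group, could be named; the genes most like each of the 10 averaged 2 FPKM or more there. Itga3 and Itgb4 were named outside this rule, as the other integrin chains of their list. So were Sytl5, Myrip and Smpd3, which averaged under 1 FPKM in every group, and Igsf8, as the EWI-2 gene. The genes and lists were chosen with earlier results of these data known. The symbols Sytl2 and Cttn, on 2 rows each, were left out. The alternatives were DESeq2 1.42.0, limma 3.58.1 on log2(FPKM + 1) and log2(FPKM + 0.1), other scalings and filters, the replicate number as a block, the compared groups alone, and each library left out.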

Additional observations from a re-analysis of the deposited data

Results flagged for a closer look

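The effect of erastin differed between the kinds of exosome, by the interaction of edgeR's quasi-likelihood test, for Cd81 (−0.45) and Pdcd6ip (−0.34) among the 10 genes, each value being the log2 change under miR-Exo minus that under NPPC-Exo. Among the list genes that the naming rule picked, it was positive for Tspan12 (0.61), Pld1 (0.57), Rab3d (0.48), Vamp3 (0.45), Sdc4 (0.43), Cd44 (0.36), Tspan3 (0.35), Hspa8 (0.34), Adam10 (0.3) and Hsp90ab1 (0.2). It was negative for Tbc1d10a (−1.29), Itga4 (−1.18), Vps37b (−0.97), Sdc3 (−0.71), Sphk2 (−0.69), Rab11b (−0.64), Sdc2 (−0.63), Chmp4c (−0.45), Itga6 (−0.31), Kif5b (−0.31), Itgb1 (−0.29) and Anxa5 (−0.24). Anxa5 did not pass by library size alone (−0.22).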

How the results depend on the processing

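Besides the values given in the report, 12 alternatives that keep all libraries or whole groups and 12 that leave out 1 library each were run. Over the 10 genes these gave 865 values: 781 kept their direction and call, 28 lost a call, 14 gained one and 42 changed sign, none of the last with an adjusted p under 0.05. In every one of these alternatives Cd9, Cd81, Rab27a and Sdcbp stayed lower and Cd82 and Cd151 higher with erastin.

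Under library size alone, limma on log2(FPKM + 1) and limma on log2(FPKM + 0.1), in that order, these changed sign. With erastin under miR-Exo, Cd63 was at 0.1, 0.0956 and 0.0958. Between the kinds of exosome without erastin, Cd9 was at 0.0424, 0.0414 and 0.0419, Cd82 at 0.0359, 0.0362 and 0.037 and Sdcbp at 0.0445, 0.0413 and 0.0415. With erastin, Cd63 was at 0.0627, 0.0591 and 0.0593, Cd82 at 0.0386, 0.0353 and 0.0356, Tspan4 at 0.0243, 0.0163 and 0.0187 and Rab27b at 0.049, 0.0243 and 0.0347. The interaction of Cd82 was 0.00269 by library size alone. These 3 settings do not correct for the composition of the libraries. With limma 1 of the 10 genes was called between the kinds of exosome with erastin.

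With 1 library left out, signs changed within these ranges: Pdcd6ip with erastin under NPPC-Exo −0.0123 to 0.118; without erastin, Cd9 −0.116 to 0.00567, Cd82 −0.134 to 0.0305 and Tspan4 −0.0589 to 0.0809 between the kinds of exosome; with erastin, Sdcbp −0.00973 to 0.0388; and the interactions of Cd82 −0.0958 to 0.0687 and Cd151 −0.047 to 0.0685. The genes called between the kinds of exosome without erastin numbered 970 to 1854 (1669 with all libraries), of which 0 to 2 were among the 10, and those of the interaction 1205 to 2419 (2006), with 1 to 2 among the 10. Fewer libraries were used in these fits.

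Over all groups the replicate number did not pair the libraries: of 18 same-numbered pairs, 4 had deviations from the group means that correlated over 0.1 (range −0.241 to 0.422), and 6 of 12 libraries correlated best with their own number. These 4 included all 3 pairs of NPPC-Exo with miR-Exo without erastin. With a replicate block among these libraries, added after seeing the data, 1958 genes were called between them (1501 with only these groups in the fit), which changed no call of the 10 genes. With the replicate block over all groups 6 of the 10 genes were called under NPPC-Exo, Cd151 being lost (0.176, adjusted p 0.0567), and all counts of calls stayed within 1.5 times. Depth limits Rab27b, with 47 to 157 counts a library.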
